A study of Mus musculus with 19 samples.

Results

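This account compares activated with resting regulatory T cells (Tregs) that lack c-Rel, and asks which part of the activated programme is present without it. The comparison rests on 4 of the series' 19 libraries: c-Rel-deficient activated Tregs (aTregs) numbered 2 and 3, and c-Rel-deficient resting Tregs (rTregs) numbered 1 and 2. All genes with library values were taken, 14818 of the 14839 in the sorted-cell table, and 10656 of them reached 1 RPKM (reads scaled by gene length and library size) in 2 libraries and were tested. The 4 libraries were fitted together with the other 9 sorted libraries, so that all groups shared 1 estimate of spread.

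Mouse Tregs were isolated as YFP-positive cells from C57Bl/6 Foxp3-CRE-YFP animals, in which the Foxp3 locus, active in Tregs, drives both Cre recombinase and the fluorescent reporter. Wild-type (WT) cells carried that allele alone, c-Rel-deficient cells also carried c-Rel F/F, and p65-deficient cells carried p65 F/F, so Cre was present in the controls too. Each genotype was sorted from spleen and lymph nodes by CD44 and another surface marker into CD44lo rTregs and CD44hi aTregs and taken to RNA without culture. WT gave 2 rTreg and 3 aTreg libraries, and p65-deficient cells gave 2 of each. No label says that libraries of 1 group came from separate animals, so each p-value reflects variation among these libraries only, which may be technical. With 2 libraries in each c-Rel-deficient group, both values are printed in place of an SD.

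Tregs restrain immune responses under the transcription factor Foxp3. c-Rel, encoded by Rel, and p65, encoded by Rela, are NF-kB subunits that sit in the cytoplasm bound to inhibitors of the IkB family and enter the nucleus after antigen receptor and costimulatory signals, where they bind kappa B motifs. c-Rel is known for its part in the thymic development of Tregs. aTregs are the fraction that has met antigen: they lose lymph node homing receptors, gain receptors for inflamed tissue, and make suppressive molecules such as interleukin 10.

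The deposited RPKM values differed by replicate number in ways no label describes, and bore marks of an adjustment. Exactly equal values other than 0 occurred 15883 times between libraries with the same number and 0 times between libraries with different numbers. Gene means hardly differed between the numbers: the SD of the log2 difference was 0.109 between numbers 1 and 2 and 0.116 between numbers 2 and 3, against 0.431 between aTregs and rTregs, over 7891 genes with a mean of at least 5 RPKM. Number 3 held only aTregs (WT 3 and c-Rel-deficient 3), whereas numbers 1 and 2 held 3 rTreg libraries each with 2 and 3 aTreg libraries. Igfbp4, for example, was 475 and 588 RPKM in c-Rel-deficient rTregs, 41.5 in aTreg 2 and 366 in aTreg 3, and WT aTreg 3 was likewise high at 273 against 26.3 and 32.4 in the other WT aTregs. In this gene both libraries numbered 3 lay between the subsets, and why they did was not tested. Number 2 is the only number with both subsets of c-Rel-deficient cells, and differences within it are given beside the results where they matter. Weakly expressed genes shared nonzero floors within a number (Siglech, for example, was 0.719 RPKM in WT rTreg 1, WT aTreg 1 and p65-deficient rTreg 1), so ratios of low values are imprecise, and the sequencing depth of these libraries is unknown.

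The targeted gene was checked first. Rel, on the minus strand of chromosome 11 from 23736847 to 23770970 (GRCm38), had 5.37 and 1.39 RPKM in c-Rel-deficient rTregs and at 1.56 and 3.01 in c-Rel-deficient aTregs. WT rTregs had 10.9 and 20.5, and WT aTregs 18.6, 21.3 and 22, so the highest c-Rel-deficient value was under the lowest WT value. Rela, which was not targeted here, held 70.8 and 71.6 RPKM in c-Rel-deficient rTregs and 65.5 and 65.8 in aTregs. Foxp3 was 73.6 and 28.1 in c-Rel-deficient rTregs and 53.5 and 64.6 in aTregs, which overlap, against 71.9 to 102 over the 5 WT libraries. The T cell genes Cd3d, Cd3e, Cd3g, Cd4, Lck, Cd247, Lat and Foxp3 summed to between 2502 and 3261 RPKM in every sorted library, and 0 of these 8 genes was called in the c-Rel-deficient comparison.

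How many genes passed a test depended on whether the replicate number was in the model. In limma on log2(RPKM + 0.5) with group means alone, 0 of 10656 genes had an adjusted p under 0.05 in c-Rel-deficient aTregs against rTregs (0.0% called). The smallest adjusted p was 0.173, and 1494 genes had an unadjusted p under 0.05, 1109 of them higher and 385 lower in aTregs. With a term for replicate number in the same limma fit, 901 genes passed (8.46%), 703 higher (6.6%) and 198 lower (1.86%). Leaving out both libraries numbered 3, with no such term, gave 228 calls, 2.14% of the 10638 genes then tested, 182 of them higher (1.71%) and 46 lower (0.432%). Of the 901 genes, 901 had the same sign in the fit without the term, 826 had an unadjusted p under 0.05 there, 218 were also called without number 3, and in 888 the 2 aTreg libraries lay wholly on one side of the 2 rTreg libraries. Over all genes tested, aTregs lay wholly above rTregs in 21.9% and wholly below in 30.2%. Of all genes tested, 50 had 1 RPKM in fewer than 2 of the 11 libraries other than the c-Rel-deficient aTregs. These 50 were tested only because those aTregs were high, and 23 of them are among the 901. Counts and shares of calls without c-Rel include these genes. The calls leaned on single libraries: the fit with the term called 176 genes without rTreg 2, 197 without aTreg 2 and 471 without aTreg 3. Since the fit without the term called no gene, "called" below means an adjusted p under 0.05 in the fit with the term, a choice made after the result of the plain fit was known. Every change below is on the log2(RPKM + 0.5) scale from that fit unless stated, and understates changes of weakly expressed genes.

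Most of the WT programme had the same direction without c-Rel. In WT cells 2077 genes were called (19.5%), 1146 higher (10.8%) and 931 lower (8.74%) in aTregs. Of the 901 genes called without c-Rel, 758 were called in WT in the same direction, which is 84.1% of the c-Rel-deficient calls and 36.5% of the WT calls. Another 142 were not called in WT, and 136 of them had the same sign there. The single gene called in opposite directions was Snord55. The 2 comparisons share no library, but with the term they share the fitted effects of replicate number: the number 3 effect applied to c-Rel-deficient aTreg 3 comes in part from WT aTreg 3. The overlap is therefore a description and no independent support.

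Sizes were compared on genes chosen in neither genotype, the 731 called in p65-deficient cells (6.86%). Of the 548 called higher there (5.14%), 547 were higher in c-Rel-deficient and 547 in WT aTregs, with a median change of 1.14 without c-Rel and 1.35 in WT. Within replicate number 2 the medians were 1.23 and 1.40. Of the 183 called lower there (1.72%), 179 were lower without c-Rel and 183 in WT, with median changes of 0.783 and 0.995 in that direction. For scale, the median over all genes tested was -0.09 in c-Rel-deficient and -0.08 in WT cells. The median changes of these genes without c-Rel therefore had the same direction as in WT and were smaller, and this difference between medians carries no test.

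**Figure D1:**
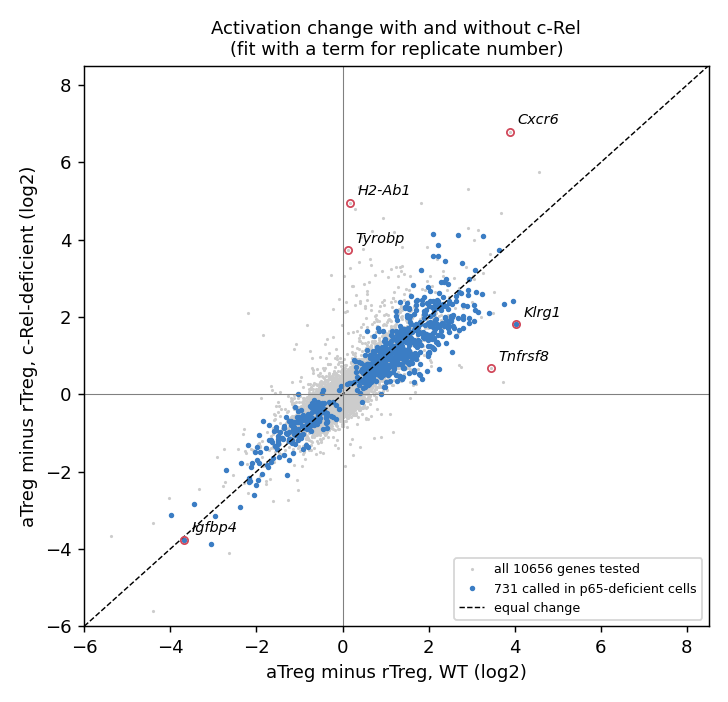
Change from rTregs to aTregs in WT (horizontal) and in c-Rel-deficient cells (vertical) on the log2 scale, one point per gene. Grey points are all 10656 genes tested and blue points the 731 called in p65-deficient cells; most blue points lie along the dashed line of equal change, with Klrg1 and Tnfrsf8 below it and Cxcr6, H2-Ab1 and Tyrobp above it.

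The same was seen library by library in the fit without the term. That fit called 338 genes in p65-deficient cells (3.17%), 297 higher (2.79%) and 41 lower (0.385%). Over the 297, the median rise above the mean of the library's own rTregs was 1.07 in c-Rel-deficient aTreg 2 and 0.68 in aTreg 3. WT aTregs 1, 2 and 3 gave 1.49, 1.45 and 0.90, and both p65-deficient aTregs 1.46. In each of these 7 libraries at least 291 of the 297 genes were above the rTreg mean. Libraries numbered 3 were the lowest of their genotype, and within each of the numbers 2 and 3 the c-Rel-deficient library was below the WT one.

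**Figure D2:**
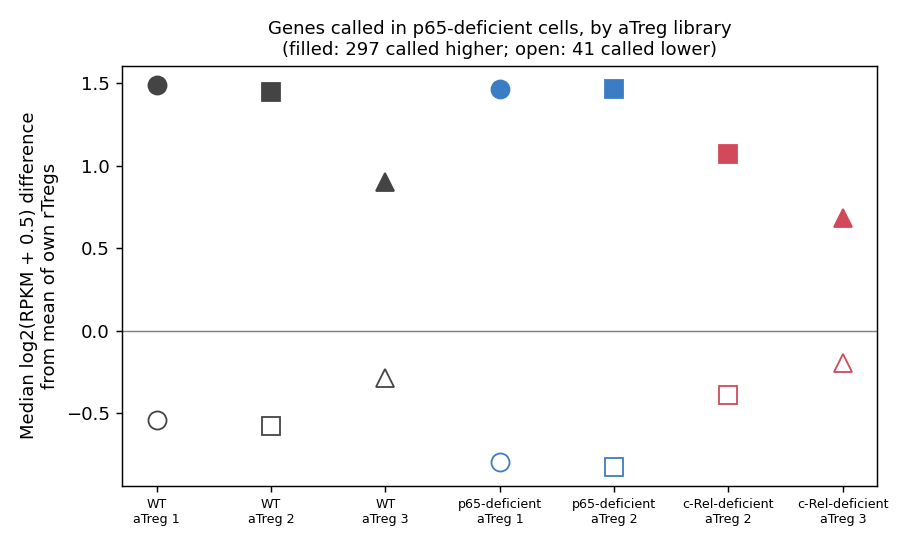
Median difference from the mean of the rTregs of the same genotype on the log2(RPKM + 0.5) scale, for each of the 7 aTreg libraries. Filled symbols are 297 genes called higher and open symbols 41 genes called lower in p65-deficient cells without a term for replicate number; the c-Rel-deficient libraries stand at 1.07 and 0.68 for the first set, nearer to 0 than the WT libraries of the same number.

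Of 30 effector Treg genes tested, 21 were called higher in c-Rel-deficient aTregs and 0 lower, beside 24 and 0 in WT, and the median change was 2.09 without c-Rel, 2.16 in WT and 1.81 in p65-deficient cells. Without the term the medians were 1.63 without c-Rel and 1.93 in WT, and within replicate number 2 they were 2.31 and 2.40. List counts here and below stand beside 6.6% called higher and 1.86% lower of all genes tested without c-Rel. In WT these shares were 10.8% and 8.74%. Icos, a costimulatory receptor that effector Tregs need, was 57.9 and 33.3 RPKM in c-Rel-deficient rTregs and 170 and 131 in aTregs, a change of 2.30 (SE 0.32, limma adjusted p = 0.00465) beside 2.20 in WT. Itgae, the integrin CD103 that binds epithelium, went from 21.4 and 15.9 to 65.8 and 78.0, a change of 2.32 (SE 0.38, limma adjusted p = 0.00981) beside 2.34 in WT. The aTreg and rTreg libraries of both genes did not overlap, beside 21.9% of all genes tested with aTregs wholly above rTregs. Tnfrsf1b, the tumour necrosis factor receptor TNFR2, was 36.6 and 25.0 in rTregs and 82.4 and 68.4 in aTregs, a change of 1.62 (SE 0.22) beside 2.13 in WT.

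Transcription factors and products of the effector state were among the called genes. Prdm1, which encodes Blimp-1, was 4.26 and 2.75 RPKM in c-Rel-deficient rTregs and 10.5 and 8.11 in aTregs. Irf4, its partner in effector Tregs and a target of antigen receptor signalling, was 12.8 and 2.62 against 27.2 and 16.1, which do not overlap. Il10, the suppressive cytokine interleukin 10, was 3.33 and 1.84 against 10.2 and 13.4. Their changes were 1.74, 2.18 and 2.81, with limma adjusted p of 0.00412, 0.047 and 0.0214, and the WT changes were 2.23, 1.59 and 2.07. Fgl2, a secreted suppressive protein, Id2, an inhibitor of E proteins, and S100a6, a calcium-binding protein, had the largest changes among called members of this list, 3.30, 3.24 and 4.24. For S100a6 the rTregs were 54.9 and 5.41 and the aTregs 179 and 148. Pdcd1, the inhibitory receptor PD-1, was called as well (1.84), with 19.9 and 25.2 in rTregs and 94.7 and 39.8 in aTregs, while WT aTregs held 107 to 188.

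**Figure D3:**
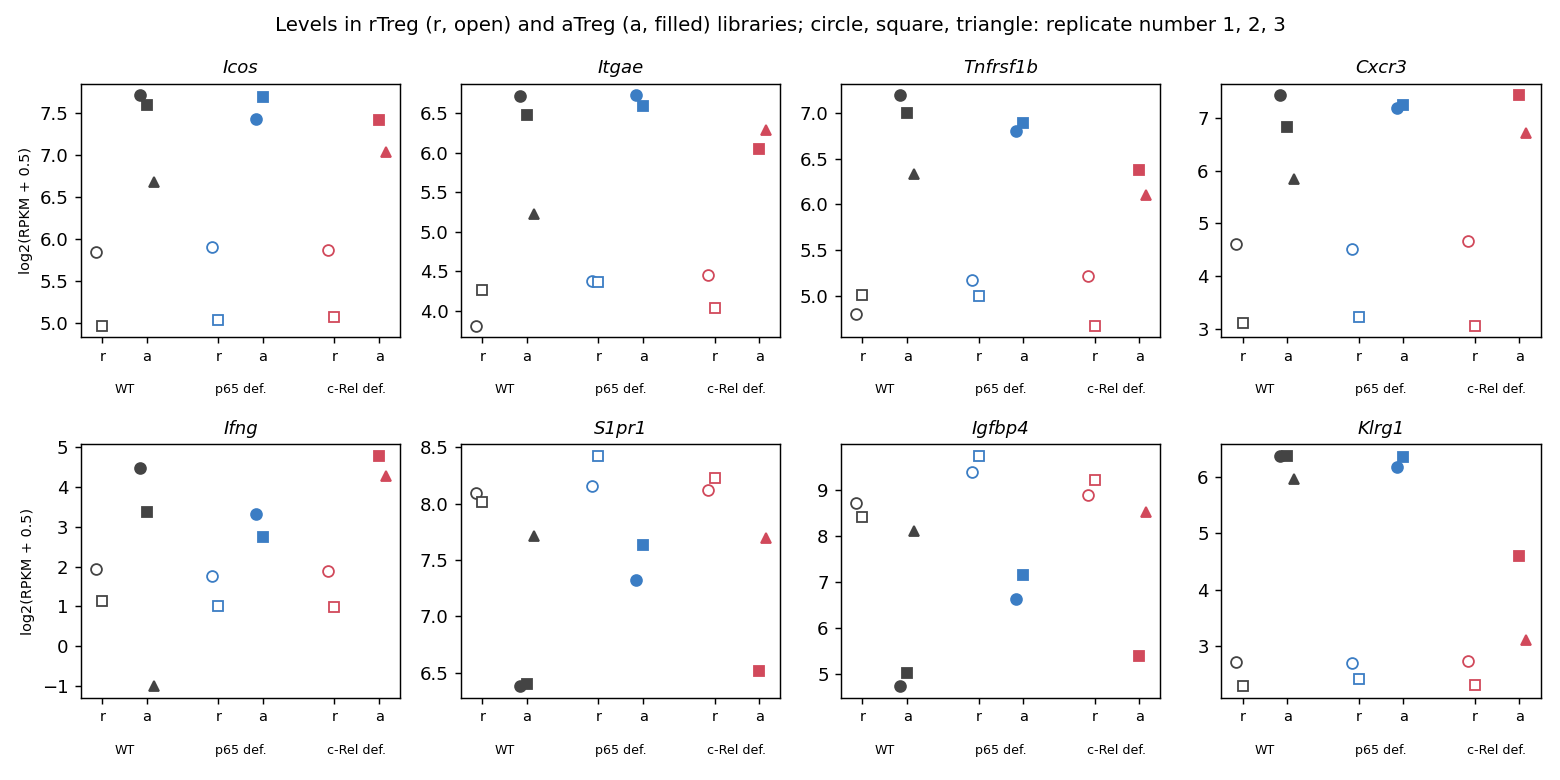
Levels of 8 genes on a log2(RPKM + 0.5) axis in rTreg (open) and aTreg (filled) libraries of WT (grey), p65-deficient (blue) and c-Rel-deficient (red) cells, with symbol shape for the replicate number. Icos, Itgae, Tnfrsf1b, Cxcr3 and Ifng were higher, and S1pr1 and Igfbp4 lower, in c-Rel-deficient aTregs than rTregs, and Klrg1 reached 23.8 and 8.10 RPKM there against 62.0 to 82.3 in WT aTregs.

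Genes that mark Tregs in general moved less. Of 19 Treg identity genes tested, 3 were called higher and 0 lower, beside 4 and 2 in WT. The 3 were Itgae, Nrp1, a semaphorin receptor, and Entpd1, the ectonucleotidase CD39. Nrp1 was 22.3 and 10.9 RPKM in rTregs and 44.8 and 26.9 in aTregs, and Entpd1 was 11 and 6.29 against 16.8 and 14.6. Among 18 inhibitory and costimulatory receptors 8 were called higher and 0 lower in both genotypes, with Cd160 (2.6), Icos (2.30) and Lag3 (2.23) the largest without c-Rel. Lag3, a receptor for MHC class II, was 13.3 and 4.79 in rTregs against 33.0 and 25.4 in aTregs. Of 13 TNF receptor family members 2 were called, both higher, beside 4 higher and 2 lower in WT. The 2 were Tnfrsf1b and Tnfrsf9, the costimulator 4-1BB, which was 59.1 and 45.5 in rTregs and 123 and 89.6 in aTregs. The 13 leave out Relt, a further family member counted with the NF-kB genes below, which was called lower without c-Rel.

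Receptors that direct cells to tissue were mostly higher in aTregs. Of 14 chemokine receptors tested, 10 were called higher and 1 lower without c-Rel, beside 11 and 0 in WT, with medians of 2.47 and 2.23. The 14 leave out Ccr7, which is given below with the homing genes and was called lower without c-Rel and in WT. The medians were 1.84 and 1.85 without the term, and 2.40 and 2.41 within replicate number 2, so the order of the genotypes was not kept. Cxcr3, the receptor for interferon-induced chemokines, was 24.7 and 7.82 RPKM in rTregs and 172 and 105 in aTregs (4.09, SE 0.40, limma adjusted p = 0.00118, beside 3.27 in WT). Ccr2, the receptor for monocyte chemokines, was 9.04 and 0.903 against 56.8 and 34.0 (5.32). Cxcr6, the receptor for CXCL16, gave the largest change, 6.80, but its rTreg values were 16.4 and 0, and the WT and p65-deficient rTregs numbered 1 and 2 also stood near 16 and at 0, so the ratio rests on values shared within a number. The aTregs held 163 and 39.9. Ccr8, a marker of effector Tregs in tissue, was 5.29 and 11.3 in rTregs and 40.0 and 15.6 in aTregs (1.90, beside 3.05 in WT). The member called lower was Cxcr4, the receptor for CXCL12: it was 75.1 and 95.3 in rTregs against 50.7 and 77.5 in aTregs, which overlap (-0.70, limma adjusted p = 0.0399), while WT had 0.08. Of 14 integrins and adhesion genes 7 were called higher and 0 lower, led by Itgb1 (2.36), the shared beta 1 chain, Alcam (1.79) and Itgb5 (1.78).

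The resting programme was lower in aTregs without c-Rel. Of 24 genes of the resting state and lymphoid homing, 9 were called lower and 0 higher, beside 12 and 0 in WT, and the medians were -1.38 and -1.51. Without the term they were -0.79 without c-Rel and -1.12 in WT, and within replicate number 2 they were -1.46 and -1.58. S1pr1, the sphingosine receptor by which lymphocytes leave lymph nodes, was 278 and 299 RPKM in rTregs and 91.0 and 208 in aTregs (-1.75, SE 0.16, limma adjusted p = 0.00118, beside -1.66 in WT). Ccr7, the receptor for entry into lymph nodes, was 326 and 459 against 155 and 303 (-1.48, beside -2.02 in WT). Klf2, a factor that sustains S1pr1, was 244 and 260 against 97.1 and 222. Lef1, a factor of naive T cells, was 35.1 and 63.4 against 14.1 and 29.3, and Bach2, a repressor of effector genes, 16.7 and 18.9 against 5.4 and 12.3. None of these 5 genes overlapped between subsets, beside 30.2% of all genes tested with aTregs wholly below rTregs. In each of the 5 the library numbered 3 was nearer to the rTregs than aTreg 2. Bcl2, an inhibitor of cell death, was called too (-1.36), with 82.8 and 57.6 in rTregs overlapping 28.5 and 61.3 in aTregs.

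The largest falls with at least 5 RPKM in rTregs were those of Igfbp4, Ampd1, Cnn3, Amigo2, Tdrp, Acvrl1, Sorcs2, Oas2, Treml2 and Gpr146, between -3.76 and -2.17. Igfbp4, which encodes an insulin-like growth factor binding protein and whose library values are given above, changed by -3.76 (SE 0.22, limma adjusted p = 0.00027), and it was one of the genes also called without number 3 (limma adjusted p = 0.00868). Each of the 10 was called lower in WT as well, with WT changes between -3.98 and -2.01. Igfbp4, Ampd1 and Gpr146 changed by -3.67, -2.96 and -2.17 in WT, close to -3.76, -3.16 and -2.17 without c-Rel.

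Cell cycle genes were higher in c-Rel-deficient aTregs. Of 29 mitosis genes 17 were called higher and 0 lower, beside 27 and 0 in WT, and 29 of 29 were above 0. The medians were 1.91 without c-Rel, 1.79 in WT and 0.80 in p65-deficient cells. Without the term they were 1.42 without c-Rel and 1.54 in WT, and within replicate number 2 they were 2.39 and 2.21. The order of c-Rel-deficient and WT cells thus depended on the fit. Ccnb2, a mitotic cyclin, was 5.43 and 1.90 RPKM in rTregs and 15.2 and 10.3 in aTregs (2.29, limma adjusted p = 0.0154). Aurkb, a kinase of chromosome segregation, was 2.68 and 0.974 against 8.86 and 3.67. Of 27 DNA replication genes 12 were called higher and 0 lower, with Rrm2, a subunit of ribonucleotide reductase, at 12.1 and 3.73 in rTregs and 34.4 and 19.6 in aTregs. Mki67, which encodes Ki-67, was 6.81 and 0.605 against 20.3 and 9.34 and did not pass (limma adjusted p = 0.114).

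Helper T cell cytokines and lineage factors were called higher in 12 of 18 cases without c-Rel, 9 in WT and 4 in p65-deficient cells, with medians of 2.09, 1.32 and 0.50. Il2 and Il21 had 1 RPKM in fewer than 2 of the other 11 libraries, so both were tested only because c-Rel-deficient aTregs were high, and the counts and medians of this list cannot be compared between genotypes. Tbx21, the factor T-bet of type 1 helper cells, was 4.12 and 0.543 RPKM in rTregs and 30.6 and 11 in aTregs (4.13, limma adjusted p = 0.00275, beside 2.67 in WT). Ifng, the cytokine interferon gamma, was 3.21 and 1.5 against 26.8 and 18.7 (4.96, limma adjusted p = 0.0103). WT aTregs had 21.5, 9.87 and 0 RPKM of Ifng, a change of 1.82 that did not pass. Il21, a cytokine of helper cells that support B cells, was 0.583 and 0.0991 against 4.44 and 2.33, and Il2, the T cell growth factor, was 0.301 and 0 against 2.75 and 1.34. For Ifng and Il2 the test of the difference from WT did not pass (limma adjusted p = 0.938 and 0.0903).

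Genes of early antigen receptor signalling were called higher in 7 of 25 cases and lower in 0, beside 6 and 4 in WT, and the medians were 0.61 and 0.19. Within replicate number 2 the medians were 0.27 and 0.34, so the order of the genotypes was not kept there. Dusp4, a phosphatase that limits MAP kinases, was 17.2 and 6.37 RPKM in rTregs and 29.2 and 34.7 in aTregs. Fosb was 2.47 and 1.77 against 5.16 and 7.32, and Nr4a2, a nuclear receptor induced by antigen, 1.05 and 0.842 against 2.44 and 2.68. None of the 3 genes overlapped, which 888 of the 901 called genes share. Over all genes tested aTregs lay wholly above rTregs in 21.9%.

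Of 30 NF-kB subunits, inhibitors, adaptors and feedback genes tested, 3 were called higher and 1 lower without c-Rel, 5 and 1 in WT and 1 and 1 in p65-deficient cells, and the medians were 0.23, 0.11 and 0.11. These counts are read beside the 6.6% higher and 1.86% lower of all genes without c-Rel, and nothing particular to the family is drawn from them. Relb, the subunit that pairs with p52, was 30.7 and 22.4 RPKM in rTregs and 38.4 and 33.3 in aTregs (0.77, SE 0.19, limma adjusted p = 0.0408). Nfkbie, which encodes the inhibitor IkB epsilon, was 25.1 and 19.5 against 31.9 and 30.8 (0.72, SE 0.17, limma adjusted p = 0.0399). Nfkbid, which encodes the nuclear regulator IkB-NS, was 33.3 and 26.6 against 43.1 and 34.6 (0.58, SE 0.13, limma adjusted p = 0.0332). Relt, a TNF receptor family member, was the one called lower (-0.76). The aTregs of Relb, Nfkbie and Nfkbid lay above their rTregs without overlap, as in 21.9% of all genes tested. None of the 3 genes was called in the fit without number 3. Nfkb2, the precursor of p52, was 42.1 and 24.6 in rTregs and 47.0 and 38.2 in aTregs and did not pass without c-Rel (0.66), while it was called in WT (0.83).

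RefSeq promoter windows (GRCm38.p6, 250 bases before to 50 bases after a start) were used for 23 of the 30 NF-kB list members. Windows on 1 chromosome were left out of the counts of named and list genes, but not of the shares over all genes and windows. A match to the kappa B consensus on either strand, overlapping matches included, stood in a window of 10 of these 23, against 5.14% of the 27025 genes in the table and 4.51% of its 32851 windows. The windows of Nfkbie and Nfkbid are shown because both genes were called higher in aTregs that lack c-Rel and both hold a match, printed in capitals. Nfkbie has 1 match and the second of 3 Nfkbid windows has 2; a match describes the letters and not the binding of a factor. Of the 10 genes named by the smallest interaction p with WT, 7 had a window that was used and 0 of these held a match.
Nfkbie promoter, chr17:45555450-45555749, plus strand: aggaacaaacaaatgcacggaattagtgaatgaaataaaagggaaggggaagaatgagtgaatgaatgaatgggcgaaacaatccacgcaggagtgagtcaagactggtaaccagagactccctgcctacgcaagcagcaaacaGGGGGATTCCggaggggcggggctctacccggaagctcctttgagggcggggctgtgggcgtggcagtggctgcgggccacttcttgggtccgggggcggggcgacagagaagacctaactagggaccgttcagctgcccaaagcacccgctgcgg
Nfkbid promoter, chr7:30422156-30422455, plus strand: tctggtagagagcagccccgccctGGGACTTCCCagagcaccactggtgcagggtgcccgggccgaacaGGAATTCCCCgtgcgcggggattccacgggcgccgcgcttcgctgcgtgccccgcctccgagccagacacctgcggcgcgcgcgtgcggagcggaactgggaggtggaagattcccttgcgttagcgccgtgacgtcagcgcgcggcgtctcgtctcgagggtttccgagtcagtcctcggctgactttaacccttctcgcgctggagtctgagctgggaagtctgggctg

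**Figure D4:**
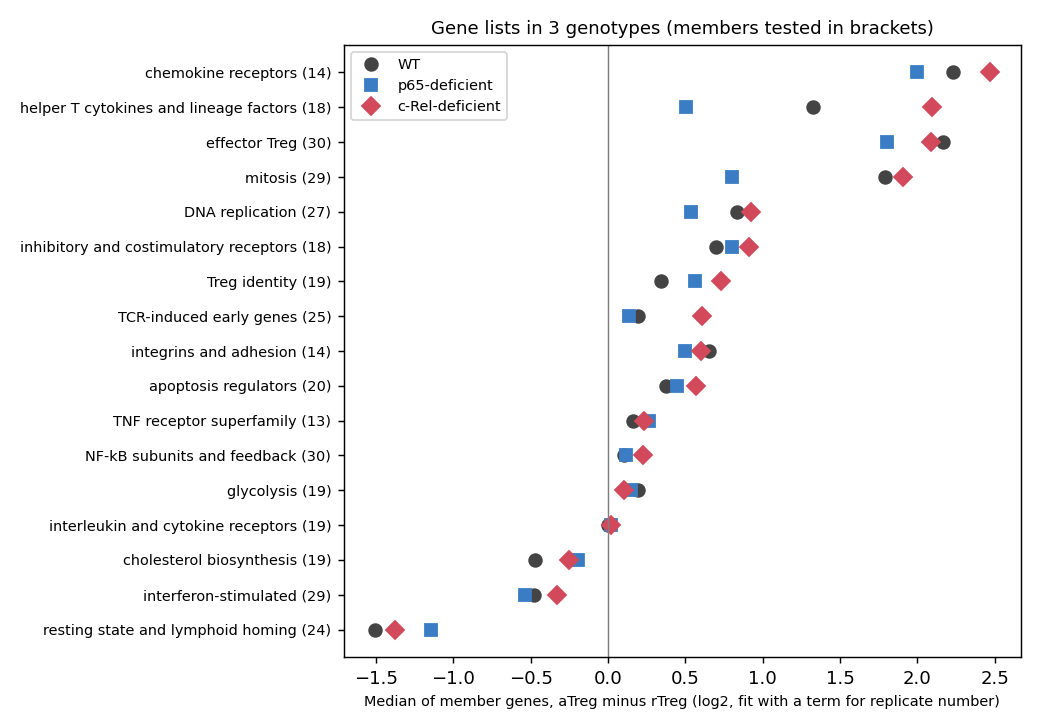
Median change from rTregs to aTregs over the tested members of 17 gene lists, on the log2 scale, in WT (circles), p65-deficient (squares) and c-Rel-deficient cells (diamonds), from the fit with a term for replicate number. The c-Rel-deficient medians run from -1.38 for resting and homing genes to 2.47 for chemokine receptors, and the mitosis median is 1.91 beside 0.80 in p65-deficient cells.

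Of 29 interferon-stimulated genes 3 were called lower and 0 higher without c-Rel, Oas2, Oasl2 and Ifit2, beside 10 lower and 1 higher in WT. Of 19 cholesterol synthesis genes 0 were called, with 5 lower in WT. Glycolysis genes gave 1 call each way of 19, Slc16a3, a lactate exporter, at 1.1 and Pdk1, which restrains pyruvate use, at -1.53. In WT 3 glycolysis genes were called higher and 2 lower. Among 20 apoptosis regulators 6 were called higher, including Bcl2a1d (2.33) and Pmaip1 (2.06), and 0 lower, beside 7 and 3 in WT. The 20 leave out Bcl2, which is given above with the resting genes and was called lower without c-Rel and in WT. Interleukin and cytokine receptors were called both ways, 5 higher and 3 lower of 19, beside 8 and 3 in WT. Il18rap (3.20), Il17rb (2.52) and Il1r2 (2.40) were the largest higher. Il4ra, the interleukin 4 receptor, was 88.8 and 98.9 RPKM in rTregs against 35.4 and 66.5 in aTregs.

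Whether an activation change itself differed without c-Rel was tested as an interaction. Without the term for number, 0 of 10656 genes differed from WT by limma at an adjusted p under 0.05 (0.0%), and 497 had an unadjusted p under 0.05. With the term 3 passed (0.0282%), Stfa3, Tyrobp and Siglech, each with a larger rise without c-Rel. No gene passed with a smaller rise. Siglech was tested only because c-Rel-deficient aTregs were high, as it had 1 RPKM in fewer than 2 of the other 11 libraries. With a filter of 3 RPKM, or without rTreg 2, the fit with the term called 0 genes in this comparison and 0 against p65-deficient cells. Against p65-deficient cells 0 passed without the term, where 219 had an unadjusted p under 0.05, and 8 with it (0.0751%), of which Il21 and Siglech entered the test in the same way. These counts do not show that other genes changed alike.

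Without the term WT had 1302 calls (12.2%), 803 higher (7.54%) and 499 lower (4.68%). Among the 803, the smallest interaction p belonged to Klrg1, Sec14l1, Alox8, Tmem164 and Hacd3, all with a smaller change without c-Rel. The 803 were chosen by the WT change that the interaction subtracts, which favours a smaller change without c-Rel. Of them, 129 had an unadjusted limma p under 0.05 with a smaller change and 0 with a larger one. The 703 genes called higher without c-Rel were chosen by their c-Rel-deficient change, which favours a larger change without c-Rel. With the term, 33 of them had an unadjusted limma p under 0.05 with a smaller change and 100 with a larger one. In that fit the 803 gave 112 and 3. Klrg1 (chromosome 6, 122270596 to 122282882, minus strand), an inhibitory receptor of terminally differentiated Tregs, was 6.13 and 4.44 RPKM in c-Rel-deficient rTregs and 23.8 and 8.10 in aTregs, against 6.07 and 4.38 in WT rTregs and 82.2, 82.3 and 62.0 in WT aTregs. The p65-deficient aTregs held 72.0 and 81.4, so the c-Rel-deficient aTregs were the lowest of the 7 aTreg libraries. The c-Rel-deficient change was 1.82 (SE 0.30, limma adjusted p = 0.0104) and the WT change 4.04. Their difference was -2.22 (SE 0.37, limma adjusted p = 0.147), and without the term -2.40 (limma adjusted p = 0.898), so it did not pass correction over all genes. Alox8, a lipoxygenase, was 2.35 and 1.15 in c-Rel-deficient aTregs against 6.04, 7.08 and 4.47 in WT, and 0.837 and 0.730 in c-Rel-deficient rTregs; its difference was -1.44 (limma adjusted p = 0.147). Sec14l1 and Hacd3 were 9.44 and 7.99, and 70.5 and 55.9, in c-Rel-deficient aTregs against 12.9 to 17.4, and 81.2 to 105, in WT aTregs. Tmem164, 19.3 and 17.0 against 19.5 to 22.2, differed mainly in WT rTregs, which held 12.9 and 15 against 18.8 and 19.7 without c-Rel.

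Tnfrsf8, the TNF receptor family member CD30, was noticed after its values were seen. It was 1.76 and 0.708 RPKM in c-Rel-deficient rTregs and 3.95 and 0 in aTregs, which overlap, while WT aTregs held 12.7, 15.6 and 11.8 and p65-deficient aTregs 7.92 and 8.86. All 5 of those libraries lay above both c-Rel-deficient aTregs. The difference from the WT change was -2.77 (limma adjusted p = 0.938).

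Among the 499 genes called lower in WT without the term the smallest interaction p belonged to Snord55, Mrgbp, Mutyh, Dusp2 and Snord19. The 499 were likewise chosen by their WT change, which favours a smaller fall without c-Rel. Dusp2, a phosphatase of MAP kinases, was 210 and 237 RPKM in c-Rel-deficient rTregs and 246 and 235 in aTregs, while WT went from 382 and 274 to 136, 168 and 201. The difference was 1.03 (limma adjusted p = 0.938). Mrgbp, a subunit of a histone acetyltransferase complex, was 17.6 and 16.3 against 16.0 and 19.4, and Mutyh, a DNA repair glycosylase, 3.69 and 4.38 against 3.97 and 4.70. For both genes the c-Rel-deficient rTregs were below the WT rTregs, which held 28.0 and 24.5, and 7.38 and 5.92. The small nucleolar RNA Snord55 was 3.84 and 4.24 in c-Rel-deficient rTregs and 8.83 and 10.3 in aTregs, opposite to WT. Short RNAs such as Snord55 and Snord19 lie inside host genes, and reads of host and guest cannot be told apart here.

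Genes called lower without c-Rel and not in WT were led by Cxcr4, Snord42a, Pde4d, Mturn and Peli1, by interaction p. Choosing genes by a call in c-Rel-deficient cells alone favours such a difference. Pde4d, which degrades cyclic AMP, was 5.73 and 9.86 RPKM in rTregs and 2.37 and 4.32 in aTregs (-1.5, limma adjusted p = 0.0181). Peli1, a ubiquitin ligase, was 83.2 and 86.5 against 50.4 and 66.9 (-0.73, limma adjusted p = 0.0161), and was called without number 3 as well (0.0455). Their differences from WT, -0.98 and -0.40, did not pass (limma adjusted p = 0.938 for both).

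Markers of other cell types moved with this comparison. Of 5 class II presentation genes tested, H2-Aa, H2-Ab1 and H2-Eb1 were called higher without c-Rel, and 0 of the 5 in WT. H2-Ab1 was 16.1 and 0.512 RPKM in c-Rel-deficient rTregs and 45.6 and 20.6 in aTregs. WT aTregs held 8.24, 1.88 and 0, and p65-deficient aTregs 6.50 and 0.977. Over the 7 class II genes with library values, tested or not, the sum was 266.5 and 69.3 in c-Rel-deficient rTregs and 396 and 279 in aTregs. In WT it was 77.9 to 103 in rTregs and 47.5 to 198.5 in aTregs. H2-Aa, H2-Ab1 and H2-Eb1 were also among the 10 largest rises without c-Rel, with Cxcr6, Ccr2, Ifng, Wnt10a, S100a6, Klrb1c and Igfbp7.

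Of 6 myeloid genes tested 4 were called higher, Cd68, Fcer1g, Tyrobp and Mpeg1, and 0 in WT. Of 3 dendritic genes 2 were called higher, Xcr1 and Siglech, beside 1 in WT. Of 6 NK and cytotoxic genes 2 were called higher, Klrb1c and Nkg7, and 1 lower, Prf1. In WT and in p65-deficient cells 1 was called higher and 1 lower. Nkg7 was called higher in all 3 genotypes, with changes of 3.57 without c-Rel, 2.22 in WT and 2.52 in p65-deficient cells. Tyrobp, a signalling adaptor of myeloid and NK cells, was 2.67 and 0.419 RPKM in c-Rel-deficient rTregs and 11.7 and 7.41 in aTregs, while WT aTregs held 2.01, 0.666 and 0. Siglech, a marker of plasmacytoid dendritic cells, was 0.743 and 0.0279 against 4.34 and 2.97. Both c-Rel-deficient aTregs were above the other 11 sorted libraries in these 2 genes. Sums were taken over all list members with library values, tested or not: 13 myeloid, 7 dendritic and 8 NK and cytotoxic genes. The myeloid genes summed to 79.9 and 79.4 in rTregs and 125 and 94.8 in aTregs. The dendritic ones summed to 108 and 110 against 110 and 118, and the NK and cytotoxic ones to 36.3 and 43.6 against 212 and 88.1. In the 9 WT and p65-deficient libraries the sums ran from 77.7 to 129 for myeloid, 70.5 to 156 for dendritic and 22.9 to 129 for NK and cytotoxic genes. The c-Rel-deficient aTregs were within these ranges except for the NK and cytotoxic sum of aTreg 2. In c-Rel-deficient aTreg 2, Xcr1 and Siglech made up 2.00 and 4.34 RPKM of the dendritic sum. Tyrobp and Mpeg1 made up 11.7 and 7.63 of the myeloid sum. These markers were small parts of the sums, so a sum within a range says little about them. Xcr1 and Siglech were tested only because c-Rel-deficient aTregs were high. B cell markers were low throughout: Cd22 was the 1 called of 3 tested. The part of such cells in the rises of Ifng, Tbx21, Il21, Ccr2, Cxcr6 and the other helper and chemokine receptor genes was not tested, and in bulk RNA fewer cells of a type and less RNA per cell cannot be told apart.

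**Figure D5:**
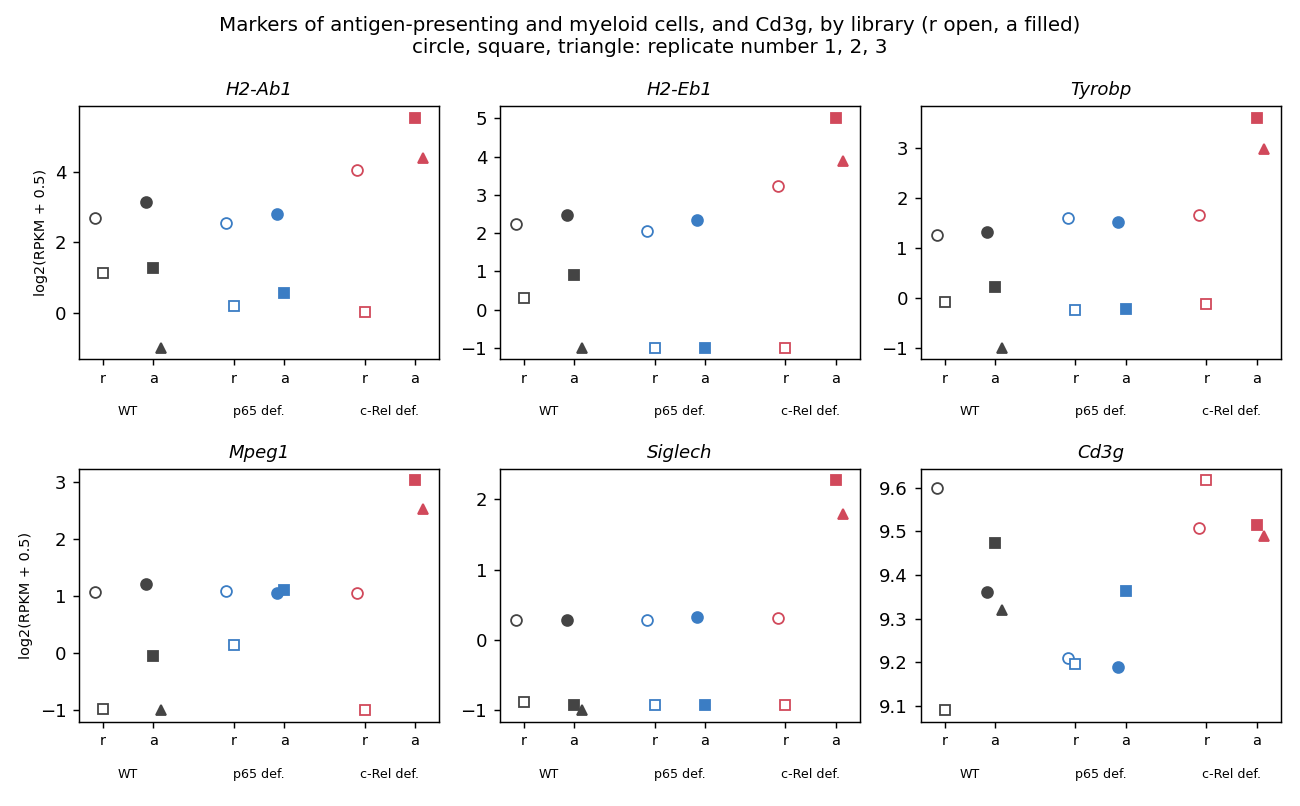
Levels of 5 genes of antigen-presenting and myeloid cells, and of the T cell gene Cd3g, on a log2(RPKM + 0.5) axis, in rTreg (open) and aTreg (filled) libraries of WT (grey), p65-deficient (blue) and c-Rel-deficient (red) cells, with symbol shape for the replicate number. Both c-Rel-deficient aTregs are the highest of the 13 libraries for Tyrobp, Mpeg1 and Siglech, and libraries numbered 1 share a raised floor.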

How the data were processed

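RNA of 13 sorted mouse Treg libraries was used, 4 of them c-Rel-deficient. The values are other than plain RPKM: per the file headers the authors deposited RPKM per library with log2 fold changes and p-values of 5 comparisons, none of them this one, and the values bear marks of an adjustment that the labels do not describe. Per the submitters' processing notes STAR, mm10 and DESeq2 1.10.1 were used. Read totals are not used here, so depth and the precision of low values are unknown. In 21 genes no library values were given. Of the values, 2.53% lie below 0 (lowest -30.7); these were set to 0.

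Computed here: log2(RPKM + 0.5), genes with at least 1 RPKM in 2 of 13 libraries, limma 3.58.1 (R 4.3.3, statmod 1.5.0, eBayes with trend) on 6 group means, two-sided, Benjamini-Hochberg adjustment, threshold 0.05, tested on simulated data. Alternatives were other pseudocounts, filters, scaling, variance, samples, and a term for replicate number. Other steps used matplotlib 3.10.9 for plots, scipy 1.17.1, numpy 2.4.6 and pandas 2.3.3 under Python 3.11.15. Positions are from GENCODE (GRCm38). Same-numbered libraries were not taken as pairs: exact values are shared within a number, and the c-Rel-deficient groups share number 2 alone.

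Genes were named by a rule: Rel, Rela, Foxp3 and the gate gene Cd44, the 10 largest called changes each way with at least 5 RPKM and no overlap, up to 3 called members of each list, and genes ranked by the interaction with WT. Because the plain fit called none, the rule was applied to the fit with the term. Other list members (Prdm1, Irf4, Il10, Pdcd1, Ccr8, Nfkbid, Nfkb2, Ccr7, Klf2, Bach2, Bcl2, Mki67, Il2, Il4ra, Cd68, Mpeg1, Xcr1, Nkg7) and Tnfrsf8 were added once their values had been seen. Some genes that the rule names are not reported here. The comparison, the members and the lists were chosen with earlier results of these data known.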

Additional observations from a re-analysis of the deposited data

Results flagged for a closer look

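Differences between genotypes in the activation change passed an adjusted p of 0.05 by limma with the term for replicate number, and 0 passed without it. With the term and a filter of 3 RPKM, or without rTreg 2, 0 passed as well. Against WT, the change in c-Rel-deficient cells was larger by 3.64 for Stfa3, 3.59 for Tyrobp and 3.03 for Siglech on the log2 scale. Against p65-deficient cells it was larger by 3.92 for Stfa3, 3.75 for Tyrobp, 3.71 for Fcer1g, 3.11 for Rnase6, 3.04 for Siglech, 2.87 for Il21, 2.86 for Mmp9 and 2.11 for Tmem176b. Siglech and Il21 were tested only because c-Rel-deficient aTregs were high. Stfa3 was 1.38 and 0 RPKM in c-Rel-deficient rTregs and 9.44 and 4.41 in aTregs. Tyrobp, Fcer1g and Siglech are on the myeloid or dendritic lists, whose part in these differences was not tested.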

How the results depend on the processing

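The c-Rel-deficient comparison gave 0 calls in the fit without a term for replicate number, and other settings without that term that kept all libraries gave 0 as well. The replicate block (the term for replicate number) gave 901, and leaving out both libraries numbered 3 gave 228. Alternatives chosen after seeing the data gave, with the block, 471 without number 3, 938 with a pseudocount of 1, 624 with a filter of 3 RPKM and 932 with median-of-ratios scaling, and when 1 c-Rel-deficient library was left out 176 (rTreg 2), 197 (aTreg 2), 471 (aTreg 3) and 778 (rTreg 1). The c-Rel-deficient groups share only number 2, so the block is not a pairing.

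WT gave 1302 calls, 208 with only the groups compared, 2077 with the block, 2203 without number 3, 2118 with the block and a pseudocount of 1, 1992 with the block and median-of-ratios scaling, and 83 to 2963 leaving out 1 library. The p65-deficient comparison gave 338, 1450 with only the groups compared, 731 with the block, 854 without number 3, and with the block 632 without number 3, 769, 570 and 755 under the pseudocount, filter and scaling named above, and 0 to 11 leaving out 1 library.

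The difference from WT gave 0 calls, 3 with the block, and with the block 12 without number 3, 12 with a pseudocount of 1, 3 with the scaling and 0 with a filter of 3 RPKM; leaving out 1 library gave 0 to 2 without the block and with it 0 (rTreg 2), 3 (rTreg 1), 7 (aTreg 2) and 12 (aTreg 3). The difference from p65-deficient cells gave 0, 2 with no filter, 8 with the block, and with it 26 without number 3, 19, 10 and 0 under the pseudocount, scaling and filter, and leaving out 1 library 0 (rTreg 2), 1 (rTreg 1), 13 (aTreg 2) and 26 (aTreg 3). Of genes called in WT, those with the same direction without c-Rel numbered 1241 of 1302, 205 with only the groups compared, 2055 with the block, 2163 without number 3, 2092 and 1967 with the block and the pseudocount or scaling, and 519 of 528 with a WT change of at least 1. The cause of these moves was not tested.

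The change of Rel in cells lacking it was -0.31 (-1.13 to 0.51 leaving out 1 library) and reversed to 0.51 without rTreg 1, 0.08 without aTreg 2 and 0.35 with the block without rTreg 1. Foxp3 (-0.32 to 1.05 leaving out 1 library) reversed to -0.32 without rTreg 2, and to -0.69 with the block. Of 2898 alternative values of 130 single-gene results, 2230 kept direction and side of the threshold, 666 passed it only under the alternative and 2 reversed. The reference was the fit without the term, in which 0 of these results passed. Keeping the side of the threshold therefore means not passing, and the 2230 values give no support to the calls made with the term. For Dusp2, Mrgbp, Mutyh, Snord19, Tmem164 and Tnfrsf8, whose own c-Rel-deficient change was not called, its sign varied with the setting and only the difference from WT was followed. A test from the authors' deposited table was not run, since the table used here holds no such comparison. Low values are limited by floors and unknown depth.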
